A study of Homo sapiens with 3 samples.

Results

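Pre-mRNA splicing factors were taken as the genes whose symbols begin with SNRP, SNRN, SF3A, SF3B, SRSF, PRPF, HNRNP, LSM followed by a digit, or U2AF, and whose transcript was listed in all 3 libraries. This rule found 74 genes among 8812 transcripts. Of these, 69 passed a minimum on the mean number of footprints in the coding sequence (CDS), as did 5684 of all transcripts. The shallowest splicing factor kept was SRSF12, with a mean of 131 CDS reads per library, and LSM10, LSM11, SNRNP25, SNRNP35 and U2AF1L4, with means from 40.7 to 122, were below the minimum. PRPF40B, a yeast Prp40 homolog, was listed with 26 and 63 CDS reads in the untreated libraries, was not listed with G418, and was left out.

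The libraries are ribosome profiling of HEK293T, a human embryonic kidney line, in which the mRNA fragments protected by ribosomes are sequenced. Untreated A and Untreated B received no drug, and G418 A was grown for 24 h with 500 μg/mL G418, an aminoglycoside that binds the decoding centre of the ribosome. G418 has 1 library, so its differences have no replicate check on the G418 side, and they are given as values, counts and counting intervals. Values of the 3 libraries are given below in the order Untreated A, Untreated B, G418 A. The deposited scale rested on 5857230, 9477972 and 7216039 reads, of which 110022, 175920 and 124730 fell in the CDSs of the splicing factors. Of 8 genes named as HEK293T markers, 7 were listed in all 3 libraries and PAX2 in Untreated B alone, while of 8 markers of other cell types only COL1A1 was listed, at 7.98 to 10.7 RPKM. CDS densities reflect both the amount of an mRNA and the ribosomes on each copy, and footprints alone cannot tell these apart.

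Introns are removed by the spliceosome, which is built from small nuclear ribonucleoprotein particles (snRNPs). Each of the U1, U2, U4 and U5 particles carries a ring of 7 Sm proteins, and U6 carries a related LSm ring. U1 recognises the 5′ splice site, U2AF and U2 define the 3′ splice site and the branch point, and the U4/U6.U5 tri-snRNP joins before catalysis. SR proteins bind exonic enhancers and mostly favour splice site use, whereas hnRNP proteins coat nascent transcripts and often restrain it. When a ribosome reads through the normal termination codon (NTC), it goes on in frame until the first in-frame stop codon of the 3′UTR (3′TC). The readthrough score of ribosomes (RRTS) is the footprint density between the NTC and the 3′TC, leaving out the first 6 nt, over the density in the CDS. RRTS is given here in percent of the CDS density.

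The mRNA windows below show the NTC of the listed transcript for the genes that had the highest and the lowest RRTS with G418. They come from GENCODE version 44 transcripts (GRCh38) and hold 9 nt before the stop codon, the stop codon and 18 nt after it, in DNA letters (T for U). Capitals mark the stop codon with the base that follows it, and the 3′TC where that lies in the window. The highest scores among genes with at least 20 readthrough reads belonged to U2AF1, SRSF8, U2AF1L5, SRSF6, SRSF11, HNRNPA2B1, SNRPA1 and SRSF4. U2AF1L5 was not matched in this annotation and is shown by name only.
U2AF1: gggcgattcTGAGccatgccatttttacct
SRSF8: atgtcctctTAAGaaaatgatgcatcagga
SRSF6: tccagagatTAACtcagaactccttgtttg
SRSF11: atgagtgacTGAAtattgcctctgagggag
HNRNPA2B1: agccgatacTGAGcttcttcctatttgcca
SNRPA1: aacgggtccTGAGcagtgaggcagatgtat
SRSF4: tcaaggtccTAACtggctatggccacagct

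The lowest scores among genes with at least 500 CDS reads with G418 belonged to SNRPD3, SNRPF, SRSF1, HNRNPC and HNRNPA1L2. The windows of the first 4 are shown. In SNRPD3, SNRPF and SRSF1 the listed stop codon is not that of the MANE Select transcript, the agreed reference isoform of a gene.
SNRPD3: catatatgcTAGGtcccagagaaaaacctc
SNRPF: ttttaccatTAGAtatgtaatgttagtgat
SRSF1: gagatggatTAAGaatgctttggattaagg
HNRNPC: gatgactctTAAGcacatagtggggttTAG
The 3 stop codons UGA, UAG and UAA are all present in this set. The stop codon of U2AF1 lies at chr21:43093102-43093104, in the last of 8 exons, and that of SNRPA1 at chr15:101281724-101281726, in the last of 9 exons. That of HNRNPA2B1 lies at chr7:26192516-26192518, in the last of 11 exons.

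The first comparison asked whether ribosome density on splicing factor mRNAs changed with G418. CDS density was taken in RPKM (reads scaled to the depth of the library and the length of the CDS) as deposited, and a gene was called only where the log2 ratio of G418 A over Untreated A and over Untreated B was at least 0.5 in both cases or at most −0.5 in both. By this rule 1 of 69 genes was called higher, LSM3, and 0 were called lower. Over all transcripts 6.32% were called higher and 1.23% lower. Measured against Untreated A alone, 6 of the 69 genes were called higher and 1 lower, against 14.5% and 2.57% of all transcripts. Against Untreated B alone, 2 were called higher and 0 lower, against 10.7% and 4.47% of all transcripts. The median log2 ratio of the splicing factors was −0.03, against 0.07 over all transcripts. The 69 genes fell into 22 above both untreated libraries (31.9%), 27 below both (39.1%) and 20 between them, whereas 46.3% of all transcripts were above both and 27.9% were below both. The untreated libraries themselves differed by 0.5 or more in 3 of the 69 genes, with 3 higher in Untreated B (4.35%, against 7.04% of all transcripts) and 0 lower (against 1.86%). The edgeR quasi-likelihood test, which here assumes that the single G418 library varies as the untreated ones do, gave 0 of 69 genes an adjusted p under 0.05, against 2.66% of all transcripts. At an unadjusted p under 0.05 it gave 6 of 69 (8.7%), against 13.6% of all transcripts. Of the 69 genes, 66 (95.7%) stayed within 0.5 of their untreated mean on the log2 scale, compared with 86.7% of all transcripts. The splicing factors are more deeply read than most transcripts, with a median of 1129 CDS reads against 407. With a minimum of 500 CDS reads, 1 of 55 was called higher and 0 lower, against 2.78% and 1.04% of all transcripts. Depth was still unequal in that set, with medians of 1508 and 954 CDS reads. Rescaling by TMM lowered the median of all transcripts from 0.07 to −0.03 and that of the splicing factors from −0.03 to −0.13. A rescaling shifts all genes nearly alike, so the distance between the medians, −0.10 under both scalings, could hardly change.

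**Figure D1:**
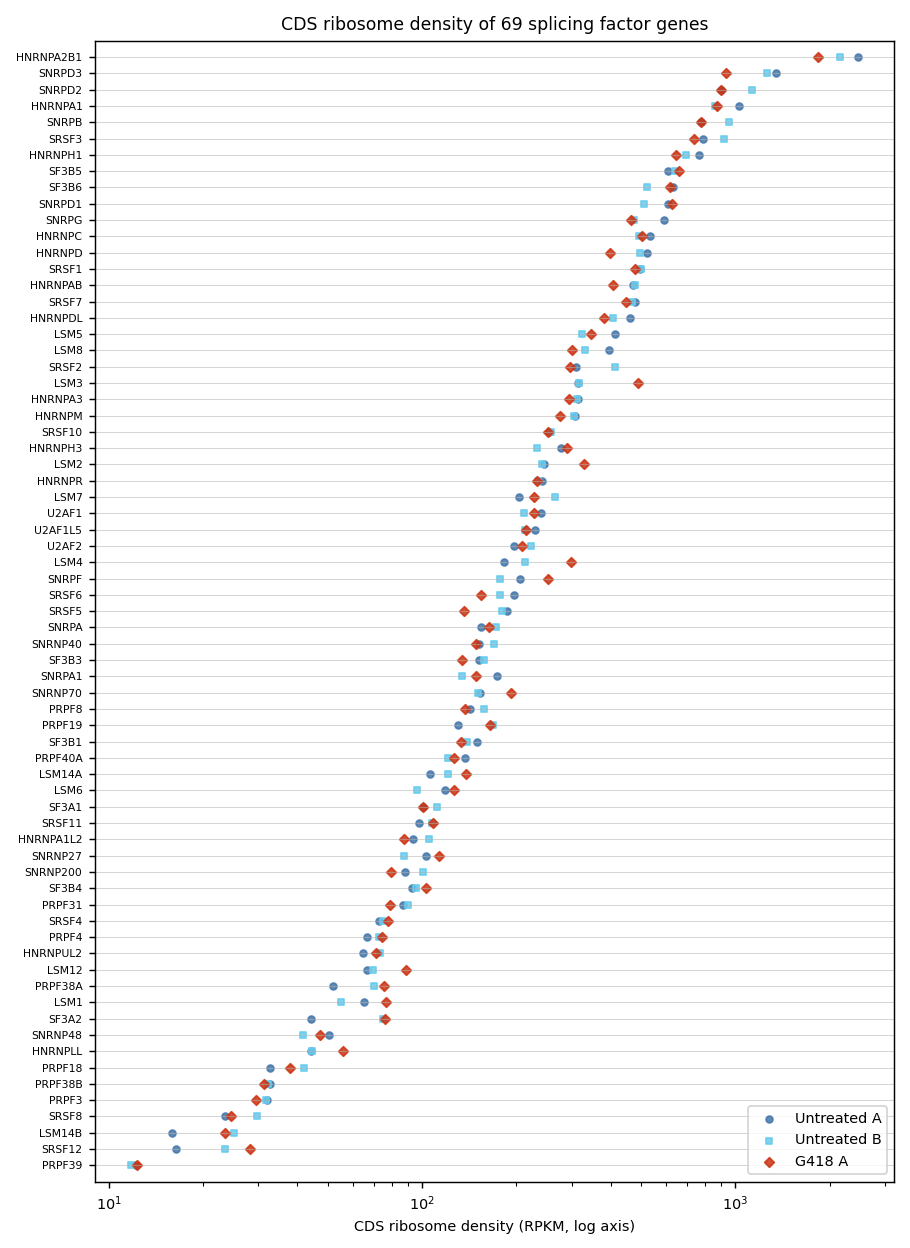
CDS ribosome density in RPKM (horizontal, log axis) of the 69 splicing factor genes (rows, ordered by untreated mean), with circles for Untreated A, squares for Untreated B and diamonds for G418 A. Densities run from about 12 RPKM for PRPF39 to 1840 RPKM or more for HNRNPA2B1 in every library, and LSM3 is the gene whose G418 value stands clear of both untreated values by the call rule.

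Densities covered a wide range. HNRNPA2B1, an abundant hnRNP that binds nascent RNA, had the highest CDS density, at 2465, 2154 and 1840 RPKM. The next highest were SNRPD3, SNRPD2, HNRNPA1, SNRPB and SRSF3, the smallest SR protein, whose mean untreated densities ran from 852 to 1307 RPKM. At the low end, PRPF39, a U1-associated factor, had 12.2, 11.8 and 12.3 RPKM, from 141, 221 and 175 CDS reads. SRSF12, an SR protein, had 16.3, 23.4 and 28.2 RPKM and LSM14B, a component of cytoplasmic mRNA granules, had 15.9, 25.04 and 23.4 RPKM. In SRSF12 and LSM14B the untreated libraries were themselves 0.52 and 0.65 apart on the log2 scale.

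The Sm core proteins form the heptameric ring that all major spliceosomal snRNPs except U6 share, and 6 of them were measured. Of these, 2 were above both untreated libraries and 2 below both, with a median log2 ratio of −0.16. SNRPD3 (SmD3) had 1351, 1263 and 936 RPKM, a log2 ratio of −0.53 over A and −0.43 over B. It was the lowest ratio to the untreated mean among the 69 genes (−0.48), but did not meet the call rule. SNRPF (SmF) had 206, 178 and 253 RPKM, log2 ratios of 0.30 and 0.51. SNRPD1 (SmD1) had 609, 510 and 628 RPKM, also above both. SNRPG (SmG) had 593, 476 and 465 RPKM and lay just below both. SNRPB (SmB/B′) had 776, 956 and 779 RPKM, and SNRPD2 (SmD2) had 897, 1131 and 903 RPKM. The G418 values of these last genes lay between the untreated libraries, next to Untreated A. Proteins of the same ring thus differed in direction in these libraries.

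The LSm proteins of the U6 ring, which stabilise U6 and its pairing with U4, had a median log2 ratio of 0.24 over 7 genes, 4 of them above both untreated libraries and 1 below both. LSM3 had 314, 318 and 488 RPKM, log2 ratios of 0.64 over A and 0.62 over B. Its call was lost under median-of-ratios scaling, where its log2 ratio to the untreated mean was 0.52 in place of 0.63, and its edgeR adjusted p was 0.0908. LSM4 had 183, 213 and 298 RPKM, log2 ratios of 0.70 and 0.48, the second just short of the rule. LSM2 had 244, 242 and 328 RPKM, log2 ratios of 0.43 and 0.44. In these 3 genes G418 A was above both untreated libraries, which differed by 0.02 or less on the log2 scale in LSM2 and LSM3 and by 0.22 in LSM4, whereas LSM8, the subunit that marks the nuclear ring, had 395, 331 and 301 RPKM and lay below both. LSM5 and LSM7 were between the untreated values, and LSM6 had 118, 96.5 and 127 RPKM. LSM2 to LSM7 also belong to the cytoplasmic LSM1-7 complex of mRNA decay, and LSM1 had 65.2, 54.9 and 76.6 RPKM, log2 ratios of 0.23 and 0.48. LSM12 and LSM14A, which act outside the spliceosome, also had G418 values above both, and the 4 genes of this group had a median of 0.32. None of these 4 was called.

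**Figure D2:**
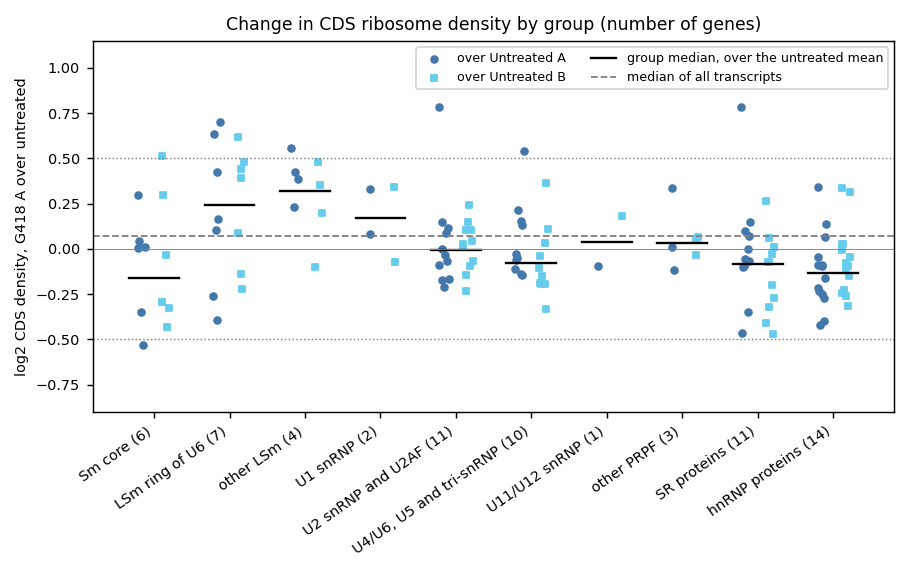
Log2 ratio of CDS density in G418 A over Untreated A (circles) and over Untreated B (squares) for each gene, by group, with the group's median over the untreated mean (bar), the median of all transcripts (dashed line, 0.07) and the call thresholds (dotted lines). Only LSM3, in the LSm ring, passes a threshold over both untreated libraries.

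For U1, the U1-70K protein SNRNP70 had 153, 151 and 192 RPKM, with log2 ratios of 0.33 and 0.34. SNRPA, an RNA-binding protein of U1, was between the untreated libraries. For U2, U2AF and SF3 subunits, which hold the branch point and polypyrimidine tract, the median was −0.01 over 11 genes and the extremes of the ratio to the untreated mean were −0.20 and 0.36. SF3B1, the large scaffold at the branch site, had 149, 139 and 133 RPKM, and SF3B3 had 152, 158 and 134 RPKM, so both lay below the untreated values by less than 0.24 on the log2 scale. SF3A2 was at 44.2, 74.9 and 76.2 RPKM, a spread that lies between the untreated libraries rather than between treatments. The tri-snRNP group, with the catalytic core protein PRPF8 (142, 157 and 137 RPKM) and the helicase SNRNP200 (88.3, 100 and 79.8 RPKM), had a median of −0.08, with 6 of 10 genes below both untreated values and 3 above both.

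SR proteins had a median log2 ratio of −0.09, with 7 of 11 genes below both untreated libraries and 3 above both. SRSF5 had 187, 181 and 136 RPKM, log2 ratios of −0.46 and −0.41, and SRSF6 had 197, 177 and 155 RPKM, log2 ratios of −0.35 and −0.20. SRSF1, the prototype of the family, had 496, 501 and 477 RPKM, and SRSF7 had 478, 469 and 446 RPKM. These last values lay below both untreated values by less than 0.1 on the log2 scale. The hnRNP proteins had a similar balance, with 9 of 14 genes below both, 2 above both and a median of −0.13. HNRNPD (AUF1, which binds AU-rich elements) had 524, 495 and 398 RPKM, log2 ratios of −0.40 and −0.31. HNRNPA2B1 had log2 ratios of −0.42 and −0.23. HNRNPLL, a splicing regulator known from lymphocytes, was the other way, with 44.2, 44.5 and 56.1 RPKM. No SR or hnRNP gene was called.

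Other spliceosome proteins outside the name rule were compared from a list of 78 genes, of which 60 were listed and 59 passed the minimum. Their median was −0.07, with 1 called higher and 1 called lower. TXNL4A, the small U5 protein Dim1, had 164, 149 and 263 RPKM, and XAB2, a protein of the Prp19-related complexes, had 32.5, 36.0 and 21.9 RPKM. Of the snRNP assembly factors, 14 of 20 were listed and 13 tested, with a median of −0.11. Of the SR protein kinases and import factors, 8 of 9 were listed and 7 tested, with a median of 0.13. No gene of either list was called in CDS density.

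The second comparison asked how often ribosomes passed the stop codons of splicing factor mRNAs. Summed over the 69 genes, the readthrough regions held 99 and 143 footprints without drug and 2062 with G418. The pooled RRTS, which divides these reads by the number expected from the CDS density, was 1.27% and 1.11% without drug and 22.2% with G418 (95% counting interval 21.2 to 23.2). This was 18.6 times the mean of the untreated libraries, 1.19% ± 0.11 (SD, n = 2), and 29.8 times without the 31 genes that have a pseudogene named after them. All transcripts together gave 1.57%, 1.25% and 21.3%, a ratio of 15.2. Readthrough reads were seen in 31, 32 and 63 of the 69 genes (44.9%, 46.4% and 91.3%), against 24.0%, 22.3% and 75.8% of all transcripts. These shares depend on depth, which was greater in the splicing factors. In 61 of the 69 genes the G418 score was above both untreated scores. This count was taken for the splicing factors alone, so it does not show whether they differ from all transcripts. The median RRTS of a gene with G418 was 21.2%, compared with 18.3% over all transcripts. Intervals and floors cover counting error only.

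A gene was called in readthrough where its 95% Clopper-Pearson interval with G418 lay above its intervals in both untreated libraries. Of the 69 genes, 40 were called (58%), against 25.6% of all transcripts. The call depends on the number of reads, and among genes with at least 500 CDS reads the shares were 60% (33 of 55) and 41.7%. The splicing factors of that set were still read more deeply, with a median of 1508 CDS reads against 954, so these shares are not matched for depth. In that deeper set the median RRTS of the splicing factors was 18.3% and that of all transcripts 19.6%, so the order of the medians turned. The highest count in any untreated library was 14 reads, for SRSF2, and 26 genes had 0 readthrough reads in both untreated libraries. Of those 26, 14 were called. This count was also taken for the splicing factors alone and has no share over all transcripts to be read against. The reads were concentrated: HNRNPA2B1 held 13.1% of the G418 readthrough reads of the group, and the 5 genes with most reads held 37.4%.

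**Figure D3:**
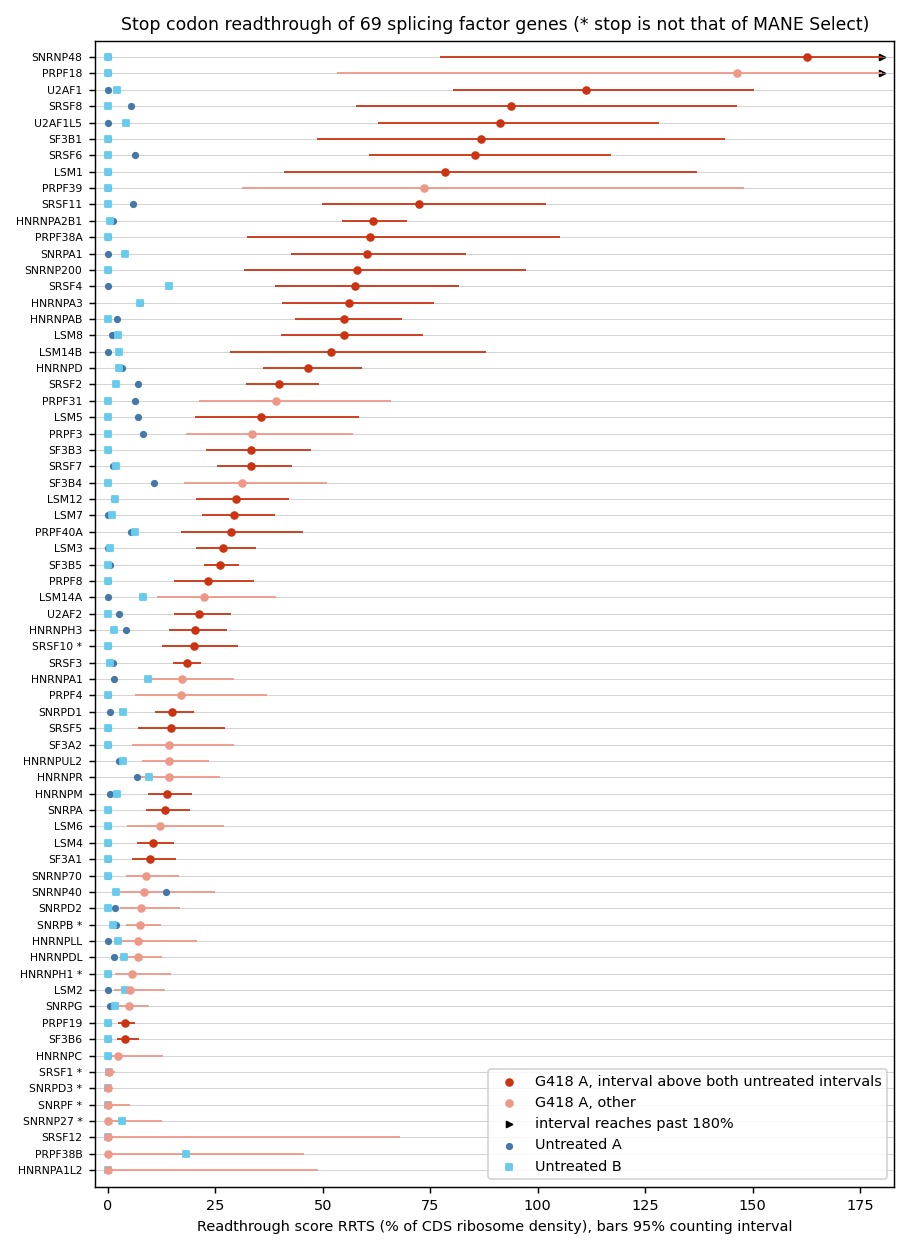
RRTS in percent of CDS density (horizontal) for each of the 69 genes in the 3 libraries, with 95% counting intervals for G418 A (bars). Called genes are dark, asterisks mark stops that are not the MANE Select stop, and SNRNP48 and PRPF18 have intervals that reach past the axis. Scores with G418 run from 0 at the bottom, where 4 of the 7 asterisked genes lie among the 7 lowest, to over 100% at the top.

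Among SR proteins 9 of 11 genes were called, with a pooled RRTS of 24.5% with G418, against 1.89% and 1.08% untreated. SRSF6 had 3, 0 and 40 readthrough reads and an RRTS with G418 of 85.4% (60.7 to 117). SRSF8, an intronless SR gene, had 1, 0 and 23 reads and 93.8% (57.6 to 146). SRSF11 had 2, 0 and 34 reads and 72.5% (49.9 to 102), and SRSF4 had 0, 10 and 32 reads and 57.4% (39.0 to 81.6). In each of these 4 genes the G418 value stood far above both untreated values, and the intervals of the 4 overlapped one another. SRSF2 had the most untreated readthrough reads, 14 and 8, and 95 with G418 (39.9%). SRSF3 had 7, 7 and 134 reads and 18.3%. SRSF1 stood apart with 1 read in each of the 3 libraries and an RRTS with G418 of 0.30% (0.01 to 1.69), in a region of 102 nt where 330 reads would match the CDS density. Its listed stop is not the MANE Select stop, and which isoform its CDS reads came from cannot be told from these totals.

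For U2 and U2AF, 9 of 11 genes were called, with a pooled RRTS of 25.7% (23.4 to 28.2) against 0.80% and 0.26% untreated. U2AF1, which binds the AG of the 3′ splice site, had 0, 1 and 44 readthrough reads and an RRTS of 111% (80.4 to 150). Its listed copy U2AF1L5 had 0, 2 and 34 reads and 91.3% (62.9 to 128.3). The CDS densities of these near-identical genes were 239 and 229 RPKM in Untreated A and 228 and 215 RPKM in G418 A, and since only the primary alignment of a multimapping read was kept, reads cannot be assigned between the copies with certainty. Taken as 1 unit they had 78 readthrough reads with G418 and an RRTS of 102% (80.3 to 127), against 3.10% (0.64 to 9.07) in Untreated B and none in Untreated A. SNRPA1, a leucine-rich repeat protein of U2, had 0, 3 and 39 reads and 60.4% (42.6 to 83.3). SF3B5, the smallest SF3b subunit, had 3, 0 and 191 reads and 26.1% (22.3 to 30.5), the narrowest relative interval of the group. SF3B6, which touches the branch point adenosine, was low at 4.08% (2.10 to 7.14) with 12 reads, and had 0 untreated reads.

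hnRNP proteins had the highest pooled RRTS among groups with more than 5 genes, 32.7% (30.1 to 35.4), while only 6 of 14 genes were called and the median gene had 14.1%. HNRNPA2B1 had 6, 3 and 270 reads and 61.6% (54.4 to 69.5). HNRNPAB had 3, 0 and 82 reads and 54.9%, HNRNPD had 5, 6 and 68 reads and 46.5%, and HNRNPA3 had 5, 8 and 43 reads and 56.1%. These 4 genes made up most of the group's 590 reads. At the other end, HNRNPC, the core hnRNP of nascent transcripts, had 0, 0 and 1 read and 2.29% (0.06 to 12.8). HNRNPA1 had 1, 9 and 13 reads and 17.2% (9.15 to 29.4), overlapping Untreated B at 9.22%. HNRNPA1L2 had 0 reads in every library, where 3 reads would be 39.6%. HNRNPA1 has 75 pseudogenes named after it and HNRNPA1L2 is an intronless copy of it, so reads of these genes cannot be placed with certainty.

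In the Sm core the pooled RRTS with G418 was 5.31% (4.20 to 6.62), against 0.41% and 0.90% untreated, and 1 of 6 genes was called. SNRPD1 had 1, 12 and 49 reads and 15.03% (11.1 to 19.97). SNRPB had 3, 4 and 15 reads and 7.42%, SNRPD2 had 1, 0 and 6 reads and 7.67%, and SNRPG had 1, 4 and 9 reads and 4.96%. SNRPD3 had 0 reads in all 3 libraries in a region of 99 nt, with 2230 CDS reads in G418 A. With G418, 3 reads would be an RRTS of 0.48%, and the upper end of its interval was 0.59%. SNRPF also had 0 reads in every library, where 3 reads with G418 would be 4.21% and the interval reached 5.19%. The U6 LSm ring was higher, at 23.4% (20.5 to 26.7), with 5 of 7 genes called. Its scores ran from 5.12% for LSM2 to 54.8% for LSM8, and LSM3, the gene called in CDS density, had 0, 1 and 65 reads and 26.7%.

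The tri-snRNP group had a pooled RRTS of 27.6% (22.4 to 33.7) and 3 of 10 genes called, PRPF8, PRPF38A and SNRNP200. PRPF8 had 0, 0 and 27 reads and 23.3%. SNRNP200 had 0, 0 and 14 reads and 57.9%. The U1 proteins SNRPA and SNRNP70 had 0 untreated reads and 13.2% and 8.92% with G418. PRPF19, a ubiquitin ligase of the Prp19 complex with the longest readthrough region of the set (399 nt), had 0, 0 and 19 reads and 4.08%. Scores above 100% occurred in U2AF1, SNRNP48 (10 reads, 163%, interval 77.3 to 303) and PRPF18 (6 reads, 146%, interval 53.3 to 323), the latter named because of their scores. All 3 intervals include 100%. Pooled RRTS with G418 in the comparison lists was 27.9% for other spliceosome proteins, 24.8% for snRNP assembly factors and 15.8% for SR protein kinases and import factors. In the same order, 22 of 59 (37.3%), 7 of 13 (53.8%) and 3 of 7 (42.9%) were called, against 25.6% of all transcripts. Their median depths were 690, 735 and 370 CDS reads.

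Several of the lowest scores came from transcripts whose listed stop codon differs from the stop of the MANE Select transcript, the agreed reference isoform of a gene. In GENCODE version 44, 72 of the 74 genes were matched and 64 had the MANE Select stop. Among those above the minimum the other stop was used in 7, SNRPD3, SNRPF, SNRPB, SRSF1, SRSF10, SNRNP27 and HNRNPH1. In 6 of these the listed stop lies within the 3′UTR of the MANE Select transcript, and in SNRPF it lies 37431 nt past the MANE Select stop and beyond the end of that transcript. The pooled RRTS with G418 was 2.97% (2.15 to 4.005) for these 7 genes and 25.4% (24.3 to 26.6) for the 61 with the MANE Select stop. Over all transcripts the same split gave 5.29% (394 transcripts) and 23.2% (5165 transcripts). SRSF10 had the highest score of the 7, with 0, 0 and 23 reads and 20.01%. Within the Sm core, the 3 genes with the MANE Select stop had a pooled RRTS of 10.9% (8.42 to 13.96). Which isoform the CDS reads came from cannot be told from these totals, and its part in the low scores was not tested.

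The third comparison split readthrough by stop codon. With G418 the pooled RRTS of the splicing factors was 33.4% (31.5 to 35.3) for 31 genes ending in UGA, 20.3% (18.6 to 22.1) for 25 ending in UAA and 11.1% (9.98 to 12.4) for 13 ending in UAG. All transcripts gave 29.9%, 12.2% and 19.2% for UGA, UAA and UAG, so UAA and UAG were in the opposite order among the splicing factors. In the untreated libraries the UGA genes had 1.36% and 0.78%, the UAA genes 1.82% and 2.25%, and the UAG genes 0.71% and 0.58%. Of the 13 UAG genes, SNRPD3, SNRPB and SNRPF carry a stop that is not the MANE Select stop. With MANE Select stops alone, UAG gave 14.96% and UAA 24.0%, still in that order. The pool of 13 UAG genes was weighted most by SRSF3, SNRPD3 and PRPF19, with 733, 628 and 466 reads expected with G418. The median gene with G418 had 17.2% for UAA and 13.2% for UAG, against 9.07% and 16.3% over all transcripts. The shares of the stop codons were 44.9% UGA, 36.2% UAA and 18.8% UAG, near those of all transcripts (48.9%, 30.01% and 21.1%).

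**Figure D4:**
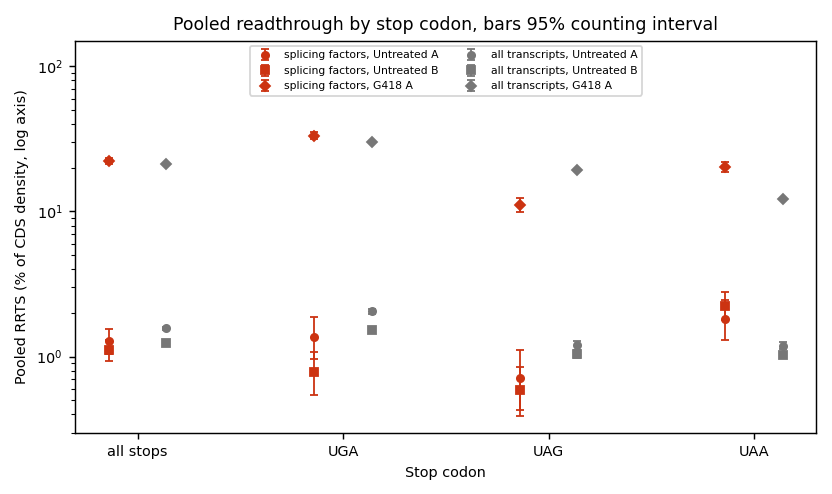
Pooled RRTS in percent of CDS density (vertical, log axis) for all stops and for UGA, UAG and UAA, in the splicing factors (red) and in all transcripts (grey), with 95% counting intervals (bars). With G418 (diamonds) the splicing factors lie below all transcripts for UAG (11.1% against 19.2%) and above them for UAA (20.3% against 12.2%).

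The base after the stop codon was also read. The UGAG context was the most frequent 4-nt stop signal, in 15 of the 69 genes (21.7%, against 18.5% of all transcripts). Its pooled RRTS with G418 was 39.6% (37.0 to 42.3) in the splicing factors and 22.8% over all UGAG transcripts, and 13 of the 15 genes were above the median of all UGAG transcripts, 19.9%. The windows of U2AF1, HNRNPA2B1 and SNRPA1 printed above show this context. Without HNRNPA2B1 the other 14 genes gave 34.0% (31.3 to 36.9). The 54 genes without UGAG gave 16.9% (15.9 to 17.9), against 21.0% over all such transcripts. Among the other contexts, UGAA gave 24.3% in the splicing factors and 32.8% over all transcripts. UAAC, carried by SRSF4, SRSF6 and SNRNP27, gave 54.6% against 20.5%. The genes sharing a context here are few, and U2AF1 and U2AF1L5 share their reads.

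Length of the readthrough region also went with the score. Genes with a region under 60 nt had a pooled RRTS of 40.0% (37.2 to 42.9, 28 genes), and those with at least 60 nt had 17.5% (16.6 to 18.5, 41 genes). HNRNPA2B1, with a region of 39 nt, held 270 of the 774 readthrough reads of the shorter set. Over all transcripts the values were 28.9% and 19.5%. The medians of single genes were 41.1% and 20.2% in the splicing factors, and 18.2% and 18.4% over all transcripts. The 69 genes had a median region of 66 nt, with a range from 18 to 399 nt, and all transcripts had the same median.

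The fourth comparison took footprints in the untranslated regions of all 74 listed genes. The 3′UTR held 0.23% and 0.19% of mRNA reads without drug and 2.60% with G418, a ratio of 12.1. All listed transcripts had 0.39%, 0.33% and 2.55%, so the splicing factors were lower untreated and about level with G418. Downstream of the 3′TC, where a ribosome that terminated there would no longer be found, the density was 0.12% and 0.10% of the CDS density untreated and 0.82% with G418, compared with 0.27%, 0.24% and 0.94% for all listed transcripts. The length used here also counts the 6 nt after the NTC that the readthrough region leaves out, and the reads may include some from there. The most reads of this kind with G418 came from SNRPB, with 32, 7 and 185 reads in 80 nt (those 6 nt included), then HNRNPA2B1 with 8, 4 and 106 and HNRNPA3 with 6, 5 and 94. SNRPB held 14.3% of them, and its listed stop is not the MANE Select stop. Without SNRPB the densities were 0.10%, 0.10% and 0.70% of the CDS density. SF3B5 had 18.6% of its mRNA reads in the 3′UTR with G418, against 1% in Untreated A and none in Untreated B.

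**Figure D5:**
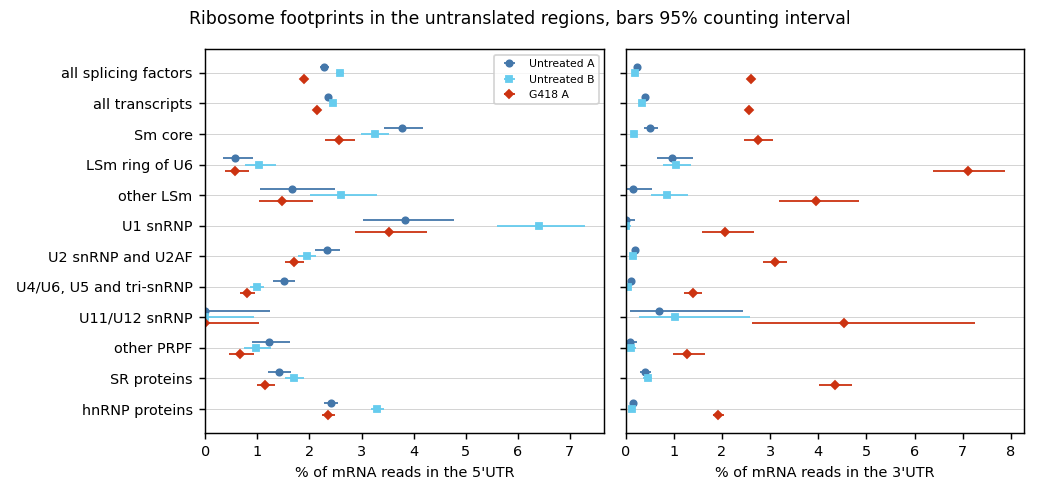
Share of mRNA footprints in the 5′UTR (left) and the 3′UTR (right), in percent, for all 74 splicing factors, all listed transcripts and the groups (genes above the read minimum), in the 3 libraries with 95% counting intervals (bars). The 3′UTR share is higher with G418 in every group, and the 5′UTR share of all splicing factors is 1.90% with G418 against 2.28% and 2.59% untreated.

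The 5′UTR share of the 74 genes was 2.28% and 2.59% untreated and 1.90% with G418, compared with 2.35%, 2.45% and 2.15% for all listed transcripts. Among the 26 genes with at least 50 untreated 5′UTR reads, 15 had a G418 share below both untreated libraries (57.7%, against 60.1% of the 1111 transcripts with as many reads) and 1 had a share above both (against 13.7% of those transcripts). The largest 5′UTR shares were those of LSM10, a U7 snRNP protein of histone pre-mRNA processing, with 45.1%, 57.5% and 41.6%, and SNRNP25, a U11 protein of the minor spliceosome, with 29.5%, 34.1% and 31.5%. Both rest on fewer than 80 5′UTR reads in each library. In PRPF38A, a tri-snRNP factor needed for activation, the share was 31.6% and 18.3% untreated and 9.07% with G418 (130, 135 and 51 reads). SNRPF had 21.5%, 24.4% and 10.6% (116, 191 and 76 reads), and SNRPD1 had 10.3%, 10.1% and 4.23% (135, 180 and 68 reads). In these 3 genes the G418 share was less than 0.6 of either untreated share, and the CDS density of each was above both untreated libraries.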

How the data were processed

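Ribosome profiling libraries of HEK293T cells were analysed, Untreated A, Untreated B and G418 A, grouped by their labels. Per the study's methods, the authors collapsed UMI duplicates, trimmed adapters, removed noncoding RNA, aligned reads with STAR to hg38 with GENCODE version 30, kept the primary alignment of multimapping reads, and assigned 28 to 35 nt fragments to the A site on 1 transcript per gene. Deposited RPM values are reads in a region scaled to library depth, and 100% of the nonzero values were whole multiples of 1 read (within 0.01), so reads were recovered from them. The deposited raw counts were 1 read lower for nearly all genes of Untreated A and were not used. Deposited RPKM is RPM per kilobase, and the CDS length leaves out 18 nt at the start and 15 nt at the end. The deposited RRTS is the ratio of readthrough to CDS density.

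The analysis used Python 3.11.15, pandas 2.3.3, SciPy 1.17.1, R 4.3.3 and edgeR 4.0.16. Transcripts below a minimum mean depth were left out (the shallowest splicing factor kept had 131 CDS reads on average), as were readthrough regions shorter than 18 nt. Pooled RRTS is readthrough reads over reads expected from CDS density, with exact Poisson 95% intervals, and single-gene intervals are Clopper-Pearson intervals (95%) of readthrough reads among readthrough and CDS reads. For a count of 0 the score that 3 reads would give is printed as a floor, and the upper end of the 95% interval lies above it. Some sequence windows are not reported here. Genes were named by rules on density, RRTS and reads: every gene called, the 6 highest and 3 lowest densities, the 8 highest RRTS with at least 20 reads, the 5 lowest with at least 500 CDS reads, the 5 highest 5′UTR shares, the 3 with most reads after the 3′TC, and all Sm proteins; further genes are examples of their group, chosen after their values were seen. The members and lists were chosen with earlier results of these data known. The calls and intervals were tested on simulated data with counting error alone, which cannot show how they behave under variation between libraries. The study calls its replicates biological, and the labels do not say how the cultures were set up.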

Additional observations from a re-analysis of the deposited data

How the results depend on the processing

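The distance between the median log2 CDS change of splicing factors and that of all transcripts was −0.10. It was -0.076 at a minimum of 500 CDS reads, -0.14 with no minimum, and between -0.093 and -0.12 when either untreated library was left out. The remaining alternatives moved it by less than the spread between the untreated libraries. For several of them this was fixed in advance. Both rescalings shift all genes nearly alike, and the call threshold does not enter the distance. Reads per depth gave the same ratios because the CDS length cancels within a gene. Adding 1 RPKM gave -0.097, and leaving out the other LSm genes or the genes with a named pseudogene gave -0.11 and -0.089. The 1 gene called higher became 2 with no minimum (LSM3 and LSM10, against 10.2% of all transcripts) and 0 at a threshold of 1 (against 0.616%). It became 0 by median-of-ratios scaling (against 3.92%) and 0 without genes that have a named pseudogene (LSM3 is one, against 6.33%). Leaving out Untreated A gave 2 (against 10.7%), and leaving out Untreated B gave 6 (against 14.5%). The 0 genes called lower became 1 (SNRPD3) by median-of-ratios scaling, against 2.71% of all transcripts. They were 0 without Untreated A (against 4.47%) and 1 without Untreated B (against 2.57%). An edgeR quasi-likelihood test, added after seeing the data and assuming that the lone G418 library varies like the untreated ones, called 0 higher and 0 lower among the 69 genes (6 at an unadjusted p under 0.05), against 2.66% of all transcripts. LSM3 had an adjusted p of 0.0908 and SNRPD3 of 0.0749 in edgeR.

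The fold of pooled RRTS, 18.6, was 16.7 without HNRNPA2B1, 29.8 without genes that have a named pseudogene, and 17.4 to 19.9 without 1 untreated library. Pooled RRTS with G418, 22.2%, was 17.5% with regions of at least 60 nt, 20.2% without HNRNPA2B1, 24.4% without genes that have a pseudogene and 25.4% with MANE Select stops alone, an alternative added after seeing the data. Genes called numbered 26 of 41 with regions of at least 60 nt (33.7% of all transcripts) and 24 of 38 without genes that have a pseudogene (25.5%). By stop codon, UGA gave 29.4% without its top gene. UAG gave 9.95% with at least 500 CDS reads, 8.92% without its top gene and 14.96% with MANE Select stops, and UAA gave 18.3% without its top gene and 24.0% with MANE Select stops. Folds without 1 untreated library ran from 24.5 to 42.8 for UGA, 15.6 to 19.0 for UAG and 9.02 to 11.2 for UAA. The causes were not tested. The 3′UTR and 5′UTR ratios moved by less than the untreated spread, 11.1 to 13.5 and 0.73 to 0.83 without 1 untreated library. No paired analysis was possible because the groups share 1 replicate letter alone. Depth limits single genes: HNRNPA1L2 had 0 readthrough reads in a region of 18 nt, where 3 reads with G418 would be 39.6%. The upper end of its Clopper-Pearson interval with G418 was 48.9%.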

Other observations

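Of the 5 splicing factors below the read minimum, LSM11, the U7 snRNP partner of LSM10, had 1, 0 and 15 readthrough reads (Untreated A, B, G418) and an RRTS with G418 of 430% (227 to 766) of a CDS density of 8.05 RPKM. LSM10 itself had a CDS density of 13.6, 10.3 and 25.3 RPKM, from 27, 33 and 62 CDS reads. SNRNP35, a U11/U12 protein, had 21.9, 28.9 and 15.7 RPKM, below both untreated libraries. U2AF1L4 had 4 readthrough reads with G418 and 0 in the untreated libraries, and SNRNP25 had 1, 0 and 10. These values rest on few reads, and the 5 genes entered the 3′UTR and 5′UTR shares but not the counts over 69 genes.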
